A study of Rattus norvegicus with 6 samples.

Results

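The cartilage and bone differentiation genes measured in healing rat tendon were Sox9 (ENSRNOG00000002607), Col2a1 (ENSRNOG00000058560), Runx2 (ENSRNOG00000020193), Spp1 (ENSRNOG00000043451) and Bmp2 (ENSRNOG00000021276). They were chosen by gene ID as named regulators and matrix genes of cartilage and bone, with earlier results of these data known. All 5 were found among the 22250 gene IDs of the count table, and all 5 were among the 15122 IDs with enough counts to be tested.

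RNA was sequenced from tendons of 3 injury model rats and 3 celecoxib + lactoferrin treated rats, on day 14. All were Sprague-Dawley rats, 6 weeks old at the start, whose achilles tendon had been cut at its midpoint and then sutured, so the injury itself was common to both groups. The treated rats received daily injections at the injury of celecoxib (10 mg/kg), which blocks cyclooxygenase-2, and of lactoferrin (2 g/kg), a milk protein that binds iron. The injury model rats are labelled as not treated. The labels give the age as 14 days, whereas the methods of the study give day 14 as time after surgery. Uninjured tendon and tendon treated with celecoxib alone were not analysed here, so a level cannot be read as raised or lowered by the injury.

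Cartilage and bone form from mesenchymal cells along related routes. Sox9 commits cells to the chondrocyte lineage and drives Col2a1, which encodes the main fibrillar collagen of cartilage. Runx2 commits cells to the osteoblast lineage and also acts in maturing chondrocytes, Spp1 encodes osteopontin, a phosphoprotein of mineralised matrix that macrophages also secrete, and Bmp2 is a secreted ligand that can induce both cartilage and bone. Chondroid and bony change is a known complication of healing achilles tendon in rodents, and Sox9 is also active in tendon cells near their attachment to bone.

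The 6 libraries held between 34546567 and 47181784 counts. Treated replicate 1 had the lowest mean Pearson's r with the other libraries (0.902, across all genes tested), and treated replicate 3 was closer to the injury model libraries (r from 0.944 to 0.963) than to its own group (0.903 and 0.922). Levels are given as CPM, a gene's counts relative to its library's total, after TMM normalization, which rescales the totals so that most genes keep the same level. Markers of tendon, muscle, macrophages, chondrocytes and osteoblasts were not analysed here, because the reference table matched 0 of the 22250 IDs. The tissue label and the cell types behind these values were therefore not checked, and in bulk tendon fewer cells of a type and less RNA per cell cannot be told apart. The symbols of the 5 genes came with the list of IDs. Gene lengths that match these counts were not at hand, so levels are compared between libraries, and a ratio of 2 genes' counts is read only for how it changes between libraries.

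None of the 5 genes passed the test between the groups. In edgeR's quasi-likelihood test, 0 of the 5 genes had an adjusted p-value under 0.05, where 0.00661% of all genes tested had one, and 0 of the 5 passed the unadjusted threshold of 0.05, where 2.61% of all genes did. DESeq2 and limma-voom also called 0 of the 5 at either threshold. Over all genes, DESeq2 called 26 of 18064 at the adjusted threshold and 578 at the unadjusted one. Limma-voom called 3 of 15122 at the adjusted threshold and 495 at the unadjusted one. The groups overlapped in all 5 genes, as they did in most genes: 7.80% of all genes tested had groups that did not overlap. All 5 adjusted p-values were 0.998, and in the order of p-values the 5 genes lay between place 9069 and place 12515 of 15122. The spread between libraries of one group was in every case larger than the difference between the group means.

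**Figure D1:**
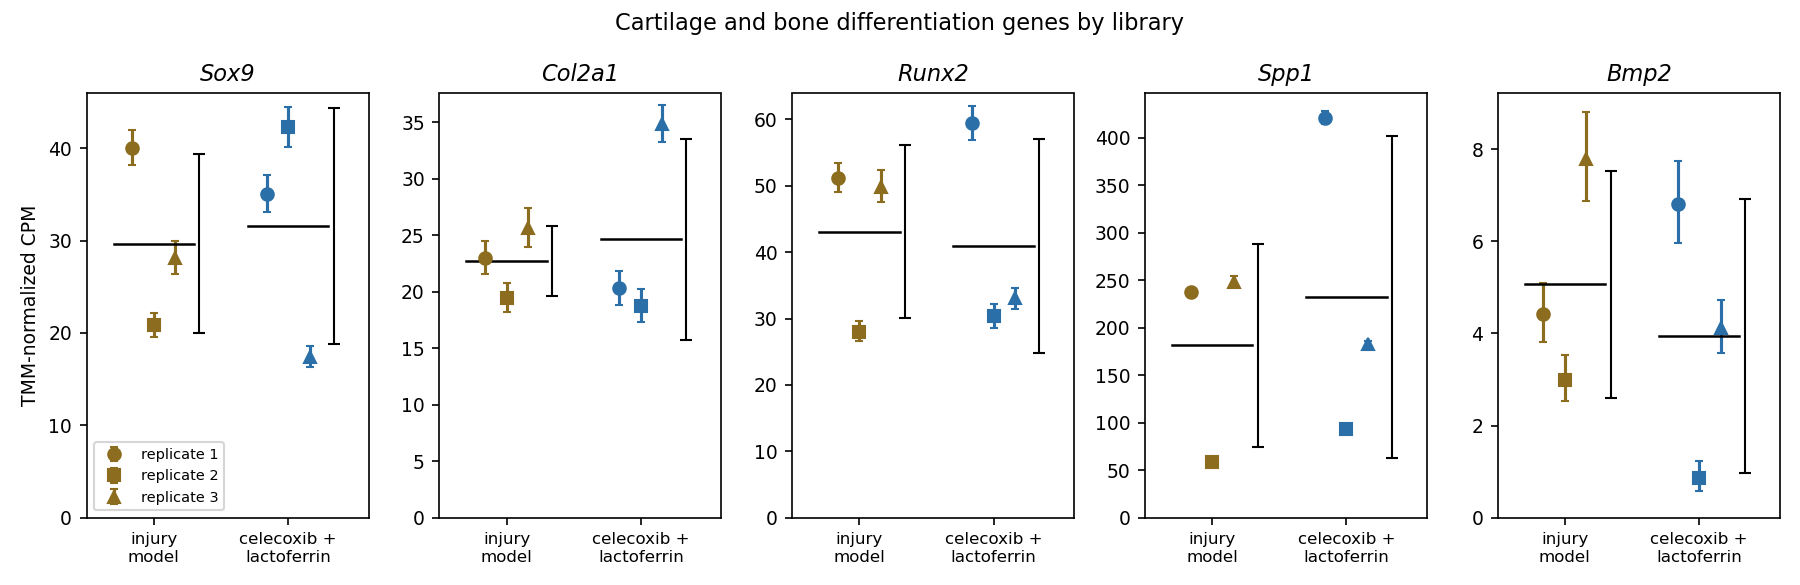
Each panel shows 1 gene, with the TMM-normalized CPM on the vertical axis from 0 and the 2 groups on the horizontal axis; marker shape gives the replicate, coloured bars the 95% counting interval of each library, the black line the group mean and the black bar its SD (n = 3). The groups overlap in every panel, and for Spp1 each rat lies outside the counting intervals of the others in its group, from 58.4 to 249 CPM in the injury model group and from 93.7 to 421 CPM in the treated group.

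Of the cartilage genes, Sox9 had 1711, 1002 and 950 counts in injury model replicates 1, 2 and 3, or 40.002, 20.9 and 28.2 CPM. In the treated replicates it had 1199, 1459 and 879 counts, or 35.0, 42.3 and 17.4 CPM. The highest and the lowest Sox9 levels were both in treated rats, and all 3 injury model rats lay between them. Injury model rats averaged 29.7 ± 9.67 CPM (SD, n = 3) and treated rats 31.6 ± 12.8 CPM (SD, n = 3). The log2 fold change of 0.09 had a standard error of 0.36 (adjusted p = 0.998, edgeR), and its 95% interval ran from -0.76 to 0.94, or from 0.590-fold to 1.92-fold. Its sign depended on single rats: it was -0.11 without injury model replicate 2 and -0.18 without treated replicate 2.

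Col2a1, the cartilage collagen, was present in every library and stood out in 1 treated rat. Its counts were 984, 936 and 866 in the injury model replicates, or 23.0, 19.5 and 25.7 CPM. They were 695, 647 and 1756 in the treated replicates, or 20.3, 18.7 and 34.8 CPM. Treated replicate 3 was the highest of the 6 libraries, and the 95% counting interval of its level, 33.2 to 36.5 CPM, lay above those of all other libraries. The other two treated rats lay within or just below the range of the injury model rats. The group means were 22.7 ± 3.10 CPM (SD, n = 3) and 24.6 ± 8.88 CPM (SD, n = 3), with a log2 fold change of 0.12 (standard error 0.27, adjusted p = 0.998, edgeR). Without treated replicate 3 the log2 fold change was -0.22. The 95% interval with all rats, from -0.50 to 0.73, was the narrowest of the 5 genes and corresponds to 0.708-fold to 1.66-fold.

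Sox9 and its target Col2a1 were not high in the same rats. Treated replicate 3 had the highest Col2a1 and the lowest Sox9 of the 6 libraries, and treated replicate 2 had the highest Sox9 and the lowest Col2a1. The ratio of Col2a1 counts to Sox9 counts was 1.998 in treated replicate 3 and between 0.443 and 0.934 in the other 5 libraries. Over the 6 libraries Pearson's r of their log2 CPM (prior count 2) was -0.62 and Spearman's rho was -0.60, and neither passed an exact permutation test (p = 0.185 and 0.242, adjusted over the 10 pairs of genes 0.462 and 0.483).

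**Figure D2:**
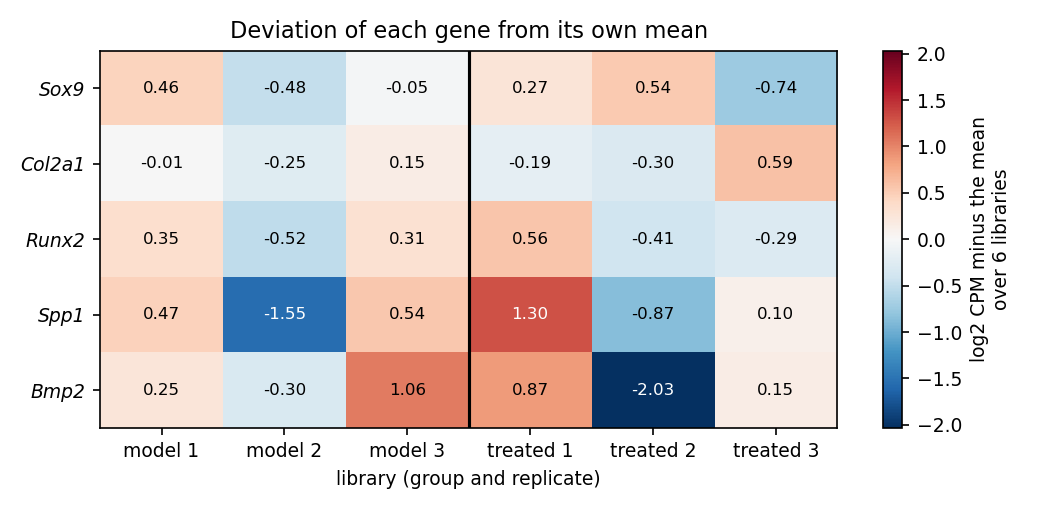
Rows are the 5 genes and columns the 6 libraries, with injury model rats to the left of the line and treated rats to the right; colours and numbers give log2 CPM minus the gene's mean over the 6 libraries. Spp1 was at -1.55 in injury model replicate 2 and -0.87 in treated replicate 2, the 2 libraries in which Runx2 was also lowest, at -0.52 and -0.41.

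Of the bone genes, Runx2 had 2192, 1347 and 1683 counts in the injury model replicates, or 51.2, 28.0 and 49.9 CPM. In the treated replicates it had 2034, 1048 and 1665 counts, or 59.4, 30.4 and 33.0 CPM. Injury model replicate 2 was the lowest and treated replicate 1 the highest, so each group held both a high and a low rat. Injury model rats averaged 43.1 ± 13.03 CPM (SD, n = 3) and treated rats 40.9 ± 16.0 CPM (SD, n = 3). The log2 fold change of -0.07 had a standard error of 0.33 (adjusted p = 0.998, edgeR), with a 95% interval from -0.84 to 0.69, or from 0.559-fold to 1.62-fold. The sign turned positive when any of 4 rats was left out: 0.07 without injury model replicate 1, 0.04 without injury model replicate 3, 0.10 without treated replicate 2 and 0.06 without treated replicate 3. It was also positive, at 0.14, with limma-voom, with libraries weighted by quality.

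Spp1, which encodes osteopontin, varied several-fold among the rats of each group. Its counts were 10142, 2808 and 8387 in the injury model replicates, or 237, 58.4 and 249 CPM. They were 14410, 3234 and 9194 in the treated replicates, or 421, 93.7 and 182 CPM. Replicate 2 of each group was low, and treated replicate 1 was the highest. Between the highest and the lowest rat the level differed 4.25 times within the injury model group and 4.49 times within the treated group, against 7.20 times over all 6. Counting error was small beside this, as the 95% counting intervals were 56.3 to 60.6 CPM in injury model replicate 2 and 414 to 428 CPM in treated replicate 1. The means were 181 ± 107 CPM (SD, n = 3) and 232 ± 169 CPM (SD, n = 3), with a log2 fold change of 0.36 (standard error 0.75, adjusted p = 0.998, edgeR). The 95% interval ran from -1.52 to 2.24, or from 0.348-fold to 4.72-fold, a range that covers both a large fall and a large rise. Without treated replicate 1 the log2 fold change turned to -0.39, and leaving out injury model replicate 2 gave -0.06. With limma-voom it was 0.85, and with a term for library depth 0.18.

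Bmp2 had the fewest counts. There were 189, 144 and 263 counts in the injury model replicates, or 4.42, 2.997 and 7.79 CPM, and 233, 30 and 208 counts in the treated replicates, or 6.80, 0.869 and 4.13 CPM. Treated replicate 2 was far below the other libraries, and its 95% counting interval, from 0.587 to 1.24 CPM, did not reach that of the next lowest library, injury model replicate 2, which began at 2.53 CPM. The other two treated rats lay within the range of the injury model rats. The means were 5.07 ± 2.46 CPM (SD, n = 3) and 3.93 ± 2.97 CPM (SD, n = 3). The log2 fold change of -0.36 had a standard error of 0.70 (adjusted p = 0.998, edgeR), with a 95% interval from -2.02 to 1.29, or from 0.246-fold to 2.45-fold. It was 0.11 without treated replicate 2 and 0.08 without injury model replicate 3, and it fell to -1.01 without treated replicate 1. With limma-voom it was -0.09, and with the replicate number as a block -0.68.

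**Figure D3:**
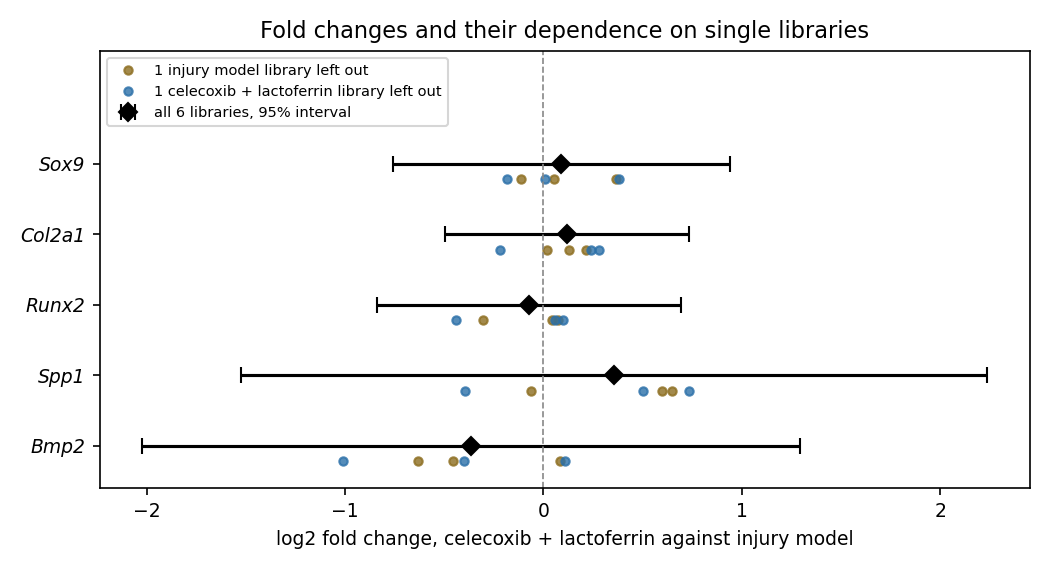
The horizontal axis gives the log2 fold change of the celecoxib + lactoferrin group against the injury model group for each gene; black diamonds and bars are the value and 95% interval with all 6 libraries, and coloured points are the values with 1 library left out. All 5 intervals cross 0, and for each gene some of the 6 points lie on the other side of 0 from the diamond, from -0.39 to 0.73 for Spp1 and from -1.01 to 0.11 for Bmp2.

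An exact permutation test of the mean log2 CPM, in which 3 rats against 3 allow no p below 0.1, gave p = 0.9 for Sox9, 0.9 for Col2a1, 1 for Runx2, 0.7 for Spp1 and 0.6 for Bmp2. The Bmp2 difference in mean log2 CPM, -0.67, was larger than the fitted value above, because a mean of logs gives more weight to the 1 low rat. The replicate spread was high for the level in 4 of the 5 genes and closer to that of other genes in Col2a1. The SD within groups on the log2 scale was 1.14 for Spp1, above that of 98.0% of the 1000 tested genes nearest to it in mean log2 CPM. It was 1.17 for Bmp2 (above 92.6%), 0.58 for Sox9 (above 93.2%), 0.51 for Runx2 (above 93.2%) and 0.37 for Col2a1 (above 75.2%). The median over all genes tested was 0.32.

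Library depth fell into 3 deeper and 3 shallower libraries that crossed the groups. Sox9 ran from 17.4 to 40.002 CPM in the 3 libraries with over 40000000 counts (treated replicate 3 and injury model replicates 1 and 2) and from 28.2 to 42.3 CPM in the shallower ones. With a term for depth its log2 fold change was -0.17, the only sign among the 5 genes that this term turned. Depth was not tested as a cause of any of these values.

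Among the bone genes, Runx2 and Spp1 varied together over rats of both groups. They had nearly the same order over the 6 libraries: both were lowest in injury model replicate 2, then in treated replicate 2, then in treated replicate 3, and both were highest in treated replicate 1. Pearson's r of their log2 CPM was 0.92 over the 6 libraries (exact permutation test, p = 0.00278, adjusted over 10 pairs of genes 0.0278), and Spearman's rho was 0.94 (exact permutation test, p = 0.0167, adjusted 0.167). Without the 2 libraries farthest from the median of Runx2, injury model replicate 2 and treated replicate 1, r was 0.86, and without the 2 rats with the lowest Spp1 it was also 0.86. With each rat left out in turn r lay between 0.88 and 0.99. Taken as deviations from the group means, r was 0.97. Of the 15121 other genes tested, 107 had a higher r with Spp1 than Runx2 had, or 0.708%, and 143 had a higher r with Runx2 than Spp1 had, or 0.946%. The points share the libraries' composition and scaling, and 6 libraries from 2 groups are a small base for a correlation.

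Bmp2 had an r of 0.72 with Runx2 and 0.71 with Spp1 (exact permutation test, p = 0.0681 and 0.110, adjusted 0.34 and 0.366). Spearman's rho was 0.77 with Runx2 and 0.89 with Spp1 (exact permutation test, p = 0.103 and 0.0333, adjusted 0.343 and 0.167). As deviations from the group means, r was 0.73 and 0.83. Whether these correlations differ from that of Runx2 and Spp1 was not tested. Treated replicate 2 held the lowest Bmp2 and the second lowest Runx2 and Spp1, while injury model replicate 3 held the highest Bmp2 without the highest of the others. After adjustment, neither Bmp2 with Runx2 nor Bmp2 with Spp1 passed the test. None of the other 7 pairs of genes did either, with r from -0.62 for Sox9 and Col2a1 to 0.45 for Sox9 and Runx2. The latter, and the r of 0.28 between Sox9 and Spp1, both turned to -0.52 without the 2 libraries farthest from the median of Sox9.

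**Figure D4:**
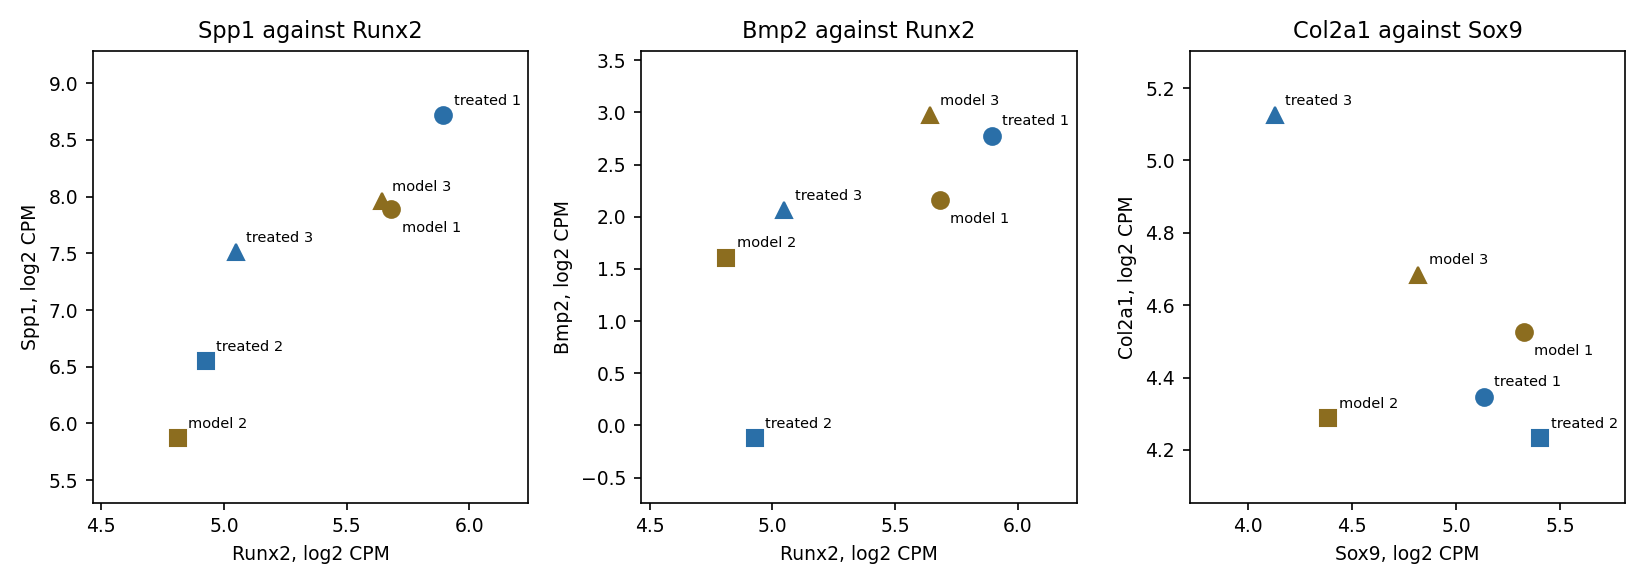
Each point is 1 library (brown, injury model; blue, celecoxib + lactoferrin; shape, replicate) and both axes give log2 CPM, for Spp1 against Runx2, Bmp2 against Runx2 and Col2a1 against Sox9. Spp1 rises with Runx2 across rats of both groups (r = 0.92), the r of Bmp2 with Runx2 is 0.72, and Col2a1 is highest in the treated rat with the lowest Sox9.

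The balance of the bone to the cartilage regulator overlapped between the groups. Runx2 had 1.28, 1.34 and 1.77 counts per count of Sox9 in the injury model replicates, and 1.70, 0.718 and 1.89 in the treated replicates. The lowest ratio was in treated replicate 2, and the highest was in treated replicate 3. Spp1 per Runx2 count ranged from 2.08 in injury model replicate 2 to 7.08 in treated replicate 1.

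The promoters of Runx2 and Spp1, the pair that varied together, are shown because osteopontin is a known target of Runx2 and Runx2 is known to act on its own promoter. Each is the stretch of 250 bases before a RefSeq start site, from the rat assembly GRCr8, 5′ to 3′ on the strand of the gene. The study's reads were aligned to another assembly, and RefSeq promoters were at hand for 2 of the 5 genes. Capitals mark AACCNCA, in which N is any base, searched on both strands. It is looser than the osteoblast element AACCACA, which Runx proteins bind and which it includes. A match to AACCNCA is therefore not necessarily a Runx site.
Runx2, first start site (chr9:23664808-23665057, plus strand): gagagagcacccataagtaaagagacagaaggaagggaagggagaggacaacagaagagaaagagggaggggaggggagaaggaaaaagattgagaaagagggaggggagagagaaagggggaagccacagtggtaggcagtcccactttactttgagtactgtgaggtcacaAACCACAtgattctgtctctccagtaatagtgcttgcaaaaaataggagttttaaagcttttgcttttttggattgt
Runx2, second start site (chr9:23742990-23743239, plus strand): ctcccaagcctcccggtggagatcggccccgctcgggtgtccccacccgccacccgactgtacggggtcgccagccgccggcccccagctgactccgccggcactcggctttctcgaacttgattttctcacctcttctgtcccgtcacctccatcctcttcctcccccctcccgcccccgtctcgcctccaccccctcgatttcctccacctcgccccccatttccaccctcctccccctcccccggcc
Spp1 (chr14:5619805-5620054, minus strand): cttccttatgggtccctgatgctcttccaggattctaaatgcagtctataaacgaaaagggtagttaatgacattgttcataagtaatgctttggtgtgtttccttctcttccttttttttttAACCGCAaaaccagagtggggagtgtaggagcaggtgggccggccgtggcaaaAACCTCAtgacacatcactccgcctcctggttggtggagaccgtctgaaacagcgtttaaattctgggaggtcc

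The Spp1 promoter held AACCNCA at 2 places, AACCGCA and AACCTCA, which began 127 and 74 bases before the start site. Neither is AACCACA itself, and whether Runx proteins bind either of them was not tested. The motif was chosen with the sequences in view. The first Runx2 start site had 1 match, AACCACA, which began 77 bases before it, and the second had 0. Of the 33469 rat promoters of this length, 12.9% held AACCNCA and 4.59% held AACCACA. A match of letters does not show that Runx2 was bound in these tendons.

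Over the 6 libraries, the gene whose log2 CPM was most like that of Spp1 was ENSRNOG00000046874 (r = 0.995, n = 6 libraries), which spanned 60.9 to 91.6 CPM. The gene most like Sox9 was ENSRNOG00000007752 (r = 0.996, n = 6 libraries), at 9.29 to 17.4 CPM. Each was the highest of 15121 values of r, and neither ID was paired with a symbol. Neither passed the test between the groups (log2 fold change 0.04 for the first and 0.03 for the second, adjusted p = 0.998 for both, edgeR).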

How the data were processed

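Total RNA from tendons of 3 injury model and 3 celecoxib + lactoferrin treated rats was analysed, and samples were grouped by their labels. The count columns are headed M and RS with a replicate number, letters that the labels do not explain and that were read as injury model and celecoxib + lactoferrin from the study's own display of these groups. The authors aligned Illumina reads to the rat assembly Rnor_6.0 with HISAT2 and deposited raw counts per gene ID, without normalization. The submitters' processing notes name the human build GRCh38.p13. The counting tool, its strand setting and its treatment of multiply matching reads are not given in the sources used here, so reads shared by overlapping genes are uncertain. No pair of libraries was a duplicate (chi-square per degree of freedom at least 90.6).

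Counts were tested with edgeR 4.0.16 in R 4.3.3 (quasi-likelihood, robust, TMM, filterByExpr by group) over 15122 genes with Benjamini-Hochberg adjustment, two-sided. Standard errors and 95% intervals were derived from the F statistic. DESeq2 1.42.0 and limma 3.58.1 were alternatives. Log2 CPM used a prior count of 2. Counting intervals are exact Poisson and cover counting error only. The methods give 3 rats a group on day 14 but the labels tie no library to a rat, so p-values measure the spread between these libraries, which may be in part technical. Named genes were the 5 members and the IDs most like Sox9 and Spp1. Members, lists and tests were chosen with earlier results of these data known, and the promoter motif with the sequences in view. Lists of marker and pathway genes were not run, as 0 IDs were paired with symbols.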

Additional observations from a re-analysis of the deposited data

How the results depend on the processing

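Members called at an adjusted or unadjusted threshold of 0.05 numbered 0 under all 14 alternatives: DESeq2, limma-voom, DESeq2 size factors, library size alone, no filter on low counts, at least 10 counts in every library, a replicate block, a depth term and each library left out in turn. Signs turned in the depth term for Sox9 (-0.17), in limma-voom for Runx2 (0.14, where Spp1 was at 0.85 and Bmp2 at -0.09), and among the fits that left out 1 library, whose log2 fold changes ran from -0.18 to 0.38 for Sox9, -0.22 to 0.28 for Col2a1, -0.44 to 0.10 for Runx2, -0.39 to 0.73 for Spp1 and -1.01 to 0.11 for Bmp2. The cause was not tested. Over all genes, adjusted calls numbered 1 in the reported fit, 26 with DESeq2, 3 with limma-voom or no filter, 0 with the stricter filter or the replicate block, and 1 to 9 with 1 library left out (9 without injury model replicate 2). Unadjusted calls numbered 395, against 223 with the depth term and 226 (without injury model replicate 1) to 890 (without treated replicate 3) with 1 library left out. With the replicate block the values were 0.04, 0.07, -0.09, 0.36 and -0.68 in the same order, with 0 calls. Same-numbered libraries did not deviate together across all genes tested (r of deviations from -0.27 to 0.06), where libraries with unlike numbers had r from -0.31 to 0.30. With 3 libraries a group, these values cannot decide whether the numbers pair rats or mark shared handling.

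For the correlations, the 2 libraries farthest from the median of Sox9 were injury model replicate 2 and treated replicate 3. Without them, Sox9 with Runx2 and with Spp1 turned to -0.52 (both), and Sox9 with Bmp2 went from -0.27 to -0.76. The 2 farthest from the median of Col2a1 were injury model replicate 3 and treated replicate 3. Without these, Col2a1 with Runx2 went from 0.03 to 0.68. Spearman's rho of Runx2 and Spp1 was 0.94 but missed the threshold after adjustment. Added after seeing the data were r without the 2 rats lowest in Spp1 (0.86) and with library size alone (0.94). The fewest counts were those of Bmp2 in treated replicate 2 (30 counts), and its counting interval was still narrower than the spread between the treated libraries.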
